A study of Mus musculus with 12 samples.

Results

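Collagen genes are the rows of the deposited expression table whose gene symbol has the form of a collagen chain (Col, a number, the letter a, a number) and whose level was 1 CPM or higher in 3 or more of the 12 libraries. CPM is the read count of a gene scaled to a common library total, here as adjusted by the authors with TMM factors (trimmed mean of M-values). Among 49585 genes 45 had such a symbol, and 40 of the 45 passed the level filter, as did 16126 genes in all. 1 of the 40, Col4a3bp, encodes the ceramide transfer protein and no collagen, and the other 39 encode collagen chains. By the structure their products form, 11 of the 39 are fibrillar, 6 belong to type IV of basement membranes, 3 to the basement membrane zone, 6 to type VI, 3 to the short-chain networks, 6 to the fibril-associated FACIT group (with interrupted triple helices), 3 are transmembrane and 1 is other. The 5 symbols below the filter were Col9a1, Col19a1, Col22a1, Col25a1 and Col26a1, each under 1 CPM in every library and not tested.

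Poly-A RNA of mouse lung was sequenced from wild-type mice (WT) and from mice in which Rgs4 was knocked out (KO), a gene for a regulator of G protein signalling, to study its part in asthma. Exposure in both genotypes was to Aspergillus fumigatus (Af), an airborne mould, or to saline (PBS) as the control, and the strain label of all libraries is Balb/cJ. The 4 groups of 3 libraries are KO_PBS (libraries 9 to 11), KO_Af (12 to 14), WT_PBS (15 to 17) and WT_Af (18 to 20), so that an effect of library order and of group cannot be told apart. The labels do not give the age of the mice, how the Rgs4 allele was made, in what form, by what route and when Af was given, and whether each library is 1 mouse.

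Collagens are triple helices of 3 chains, and the chains a cell makes decide which structure forms outside it. Fibrillar collagens, chiefly types I, III and V in the lung, assemble into the tension-bearing fibrils of airway walls, vessels and alveolar septa, type IV forms the sheet-like network of basement membranes, and type VI forms beaded filaments between fibrils and basement membranes. In the alveolus the thin basement membrane shared by alveolar type 1 cells and capillaries holds a network of the Col4a3, Col4a4 and Col4a5 chains beside the common network of Col4a1 and Col4a2 chains, and fibroblasts and their contractile relatives are the main source of fibrillar chains.

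Each library held 20708884 to 30229446 reads, so that a count of 0 allowed a level of up to 0.0983 to 0.144 CPM (3 reads, counting error only). Rgs4 stood at 20.7 to 48.9 CPM in the 6 WT libraries and at 0.571 to 1.47 CPM in the 6 KO libraries, so every library matched its genotype label. Alveolar type 2 markers, which identify lung, summed to 13370 to 27110 CPM. 2 libraries stood apart for collagen genes: WT_PBS 15 was the highest of the 6 PBS libraries for 22 of the 39 and the lowest for 9, and KO_Af 12 was the lowest of the 6 Af libraries for 27 of the 39. Values without 1 of them stand beside many of the results. P-values measure only the spread between these libraries, and in bulk RNA fewer cells of a type and less RNA per cell cannot be told apart.

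After Af the collagen genes called higher in both genotypes were fibrillar (Col1a1, Col3a1, Col5a2 and Col24a1), type VI (Col6a2, Col6a5 and Col6a6) and Col8a1, while those called lower included the 3 transmembrane collagens and 4 of the 6 type IV genes. The other 2 type IV genes, Col4a1 and Col4a2, were not called by the main limma fit. In WT lungs 8 of the 39 were higher and 12 lower after Af than after PBS at a limma adjusted p under 0.05, which was the case for 26.2% and 25.6% of all 16126 genes tested. Called in either direction were 51.3% of the collagen genes and 51.8% of all genes, a share near the background. In KO lungs 12 were higher and 17 lower, against 28.7% and 29.2% of all genes, and 74.4% of the collagen genes were called in either direction against 57.9% of all genes. 6 of the 39, Col2a1, Col4a6, Col9a2, Col9a3, Col10a1 and Col11a1, passed the level filter through PBS libraries alone, and 5 of them were among the 17 lower in KO and 1 among the 12 lower in WT (a pass of this kind itself favours lower values after Af). Without them 8 were higher and 11 lower in WT and 12 higher and 12 lower in KO, which is 57.6% and 72.7% of 33 called in either direction, beside 51.4% and 57.3% of the 14983 genes that did not pass through 1 exposure alone. The median log2 difference over the 39 was -0.145 in WT and -0.25 in KO, beside -0.02 over all genes tested in both. All 8 risers and all 12 fallers in WT were also called in KO, where they made up 66.7% of the risers and 70.6% of the fallers. Without WT_PBS 15 the WT counts were 11 higher and 14 lower (23.8% and 23.2% of all genes). Without WT_PBS 16 or without WT_PBS 17 only 4 were higher, beside 3584 of 16072 and 3617 of 16071 genes in all. Without KO_Af 12 the KO counts were 14 higher and 13 lower (29.4% and 29.6% of all genes). The Af libraries lay wholly above the PBS libraries for 7 collagen genes and wholly below for 13 in WT (32.7% of all genes each way), and for 12 and 18 in KO (31.1% and 31.7%).

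**Figure D1:**
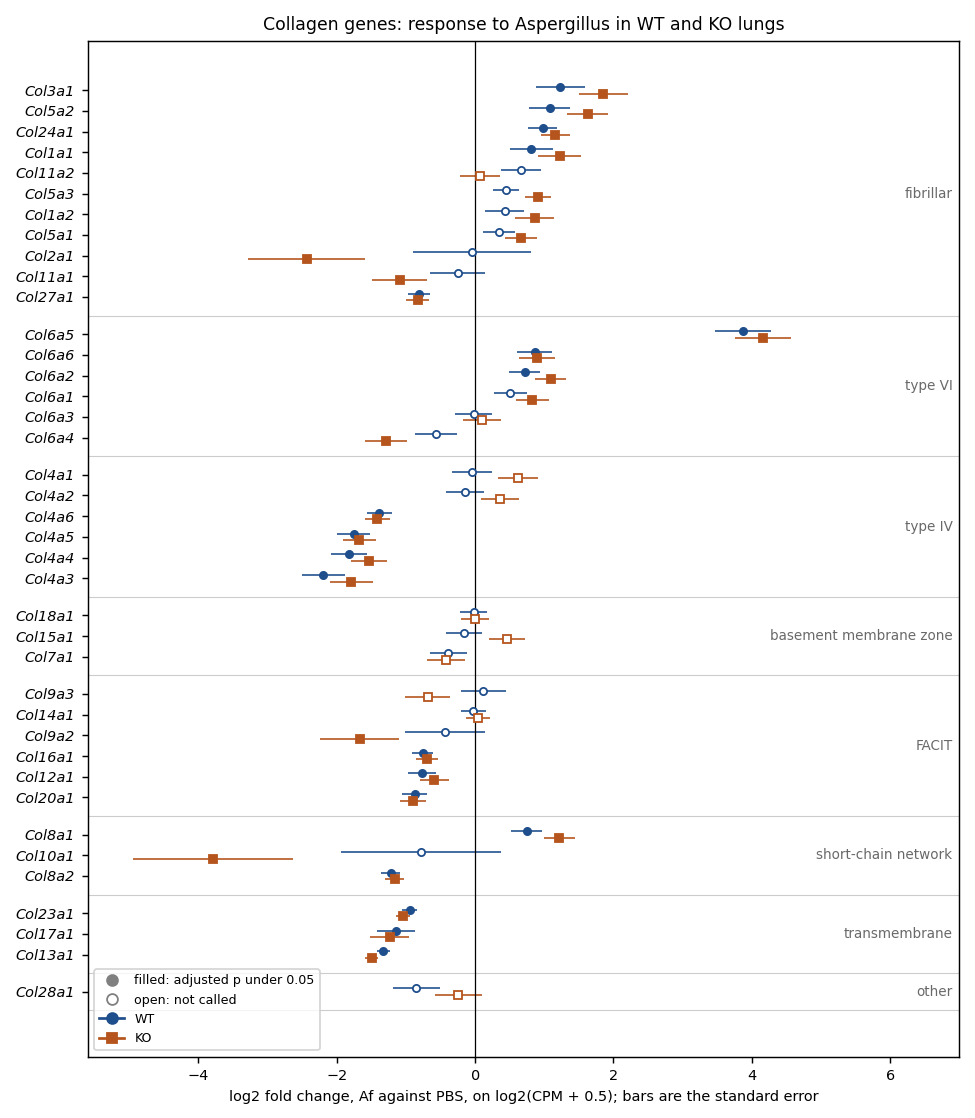
Difference of Af against PBS for the 39 collagen genes by class, in WT (blue circles) and KO (orange squares), on the log2(CPM + 0.5) scale; bars are the standard error from limma and filled symbols are called at adjusted p under 0.05. Col6a5 lies farthest to the right at 3.87 and 4.17, and 4 of the 6 type IV genes lie left of 0 with filled symbols in both genotypes.

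Among the 11 fibrillar genes 4 were called higher and 1 lower in WT (26.2% and 25.6% of all genes), and 7 higher and 3 lower in KO (28.7% and 29.2%). Of the 3 lower in KO, Col2a1 and Col11a1 passed the level filter through PBS libraries alone, which itself favours lower values after Af. Col3a1 encodes type III collagen, a fibril of stretchable tissues such as lung and vessel wall. Its level was 2174, 683 and 674 CPM in WT_PBS and 2118, 2626 and 2330 CPM in WT_Af. It was 667, 603 and 694 CPM in KO_PBS and 1957, 2781 and 2432 CPM in KO_Af. All 6 Af libraries lay close together, and WT_PBS 15 lay among them and far above the other 5 PBS libraries. The rise in KO was 3.62-fold on the log2(CPM + 0.5) scale (log2 1.86 ± 0.36 SE, limma adjusted p = 0.000984). In WT it was 2.35-fold (log2 1.23 ± 0.36, limma adjusted p = 0.0133), 1.79 without WT_PBS 15, and no longer called without WT_PBS 16 or without WT_PBS 17, where the log2 difference went as low as 0.95.

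The 250 bases before the annotated start of Col3a1 are printed because it was the riser with the highest level per length after Af; chr1:45311288-45311537, plus strand, GRCm38.p6, from RefSeq, 5′ to 3′, with capitals marking the match to TATAAA:
Col3a1: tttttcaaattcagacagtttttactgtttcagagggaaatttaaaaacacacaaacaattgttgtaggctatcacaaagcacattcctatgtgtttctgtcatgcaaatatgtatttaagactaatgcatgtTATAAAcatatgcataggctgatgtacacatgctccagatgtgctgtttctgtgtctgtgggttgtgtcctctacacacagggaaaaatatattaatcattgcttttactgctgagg

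Col1a1 and Col1a2 encode the chains of type I collagen, the main fibril of connective tissue. Col1a1 read 1009, 386 and 372 CPM in WT_PBS and 955, 976 and 835 CPM in WT_Af. In the knockout it read 394, 342 and 397 CPM in KO_PBS and 736, 1123 and 823 CPM in KO_Af. The KO groups did not overlap, whereas WT_PBS 15 was the highest of all WT libraries. The KO rise of 2.33-fold was called (log2 1.22 ± 0.31, limma adjusted p = 0.00552). The WT difference of 1.75-fold (log2 0.81 ± 0.31, limma adjusted p = 0.0464) was called only narrowly: it was 1.28 and called without WT_PBS 15, and was not called when any 1 of the other 5 WT libraries was left out (log2 from 0.56) nor by edgeR or DESeq2 on the recovered reads (0.66 and 0.66). Col1a2 followed it at 1298, 551 and 534 CPM in WT_PBS and 1003, 1003 and 922 CPM in WT_Af. In KO lungs Col1a2 was 495, 483 and 549 CPM in KO_PBS and 773, 1180 and 862 CPM in KO_Af. Its rise passed the test in KO (log2 0.86 ± 0.28, limma adjusted p = 0.0210) but not without KO_PBS 9, KO_PBS 10 or KO_Af 13 (log2 from 0.68), and in WT it had a log2 difference of 0.43 that was not called and was 0.84 and called without WT_PBS 15.

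Type V collagen starts fibrils and limits their width, and its chains come from Col5a1, Col5a2 and Col5a3. Col5a2 read 324, 133 and 123 CPM in WT_PBS and 352, 384 and 370.3 CPM in WT_Af. It was 124, 113 and 107 CPM in KO_PBS and 269, 443.6 and 372 CPM in KO_Af. No Af library overlapped the PBS libraries of its genotype, and the rise was 3.08-fold in KO (log2 1.63 ± 0.30, limma adjusted p = 0.000722) and 2.11-fold in WT (log2 1.08 ± 0.30, adjusted p = 0.0107; 1.52 without WT_PBS 15). By the main limma fit Col5a1 and Col5a3 were called in KO alone (log2 0.66 and 0.91). In WT they had differences of 0.34 and 0.45, which were 0.64 and 0.56 and called without WT_PBS 15. Array weights also called both higher in WT, as they did Col1a2 and Col6a1, and DESeq2 called Col5a3 higher in WT. The KO call of Col5a1 was lost in 5 of the 6 fits that left out 1 library, the exception being that without KO_Af 12 (log2 0.46 to 0.86 over the 6). Col24a1, a fibrillar chain of low abundance, measured 1.66, 1.69 and 1.51 CPM in WT_PBS and 4.08, 3.70 and 3.26 CPM in WT_Af. In KO lungs Col24a1 was 0.888, 0.855 and 0.703 CPM in KO_PBS and 2.36, 3.59 and 1.66 CPM in KO_Af. Its groups did not overlap in either genotype, and the rise was 1.97-fold in WT (log2 0.98 ± 0.21, limma adjusted p = 0.00220) and 2.23-fold in KO (log2 1.16 ± 0.21, adjusted p = 0.000574).

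Col27a1, a fibrillar chain best known from cartilage, fell in both genotypes, from 38.7 ± 1.78 to 22.1 ± 4.40 CPM in WT and from 31.3 ± 1.92 to 17.7 ± 3.95 CPM in KO (mean ± SD, n = 3; log2 -0.81 and -0.83, limma adjusted p = 0.00155 and 0.00108). Col11a2 was not called in either genotype (log2 0.66 in WT and 0.07 in KO), although it was called higher in WT without WT_PBS 16 (0.94) and stood at 0.31 without WT_PBS 15. The remaining fibrillar genes, Col2a1 and Col11a1, are described with the cartilage collagens.

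**Figure D2:**
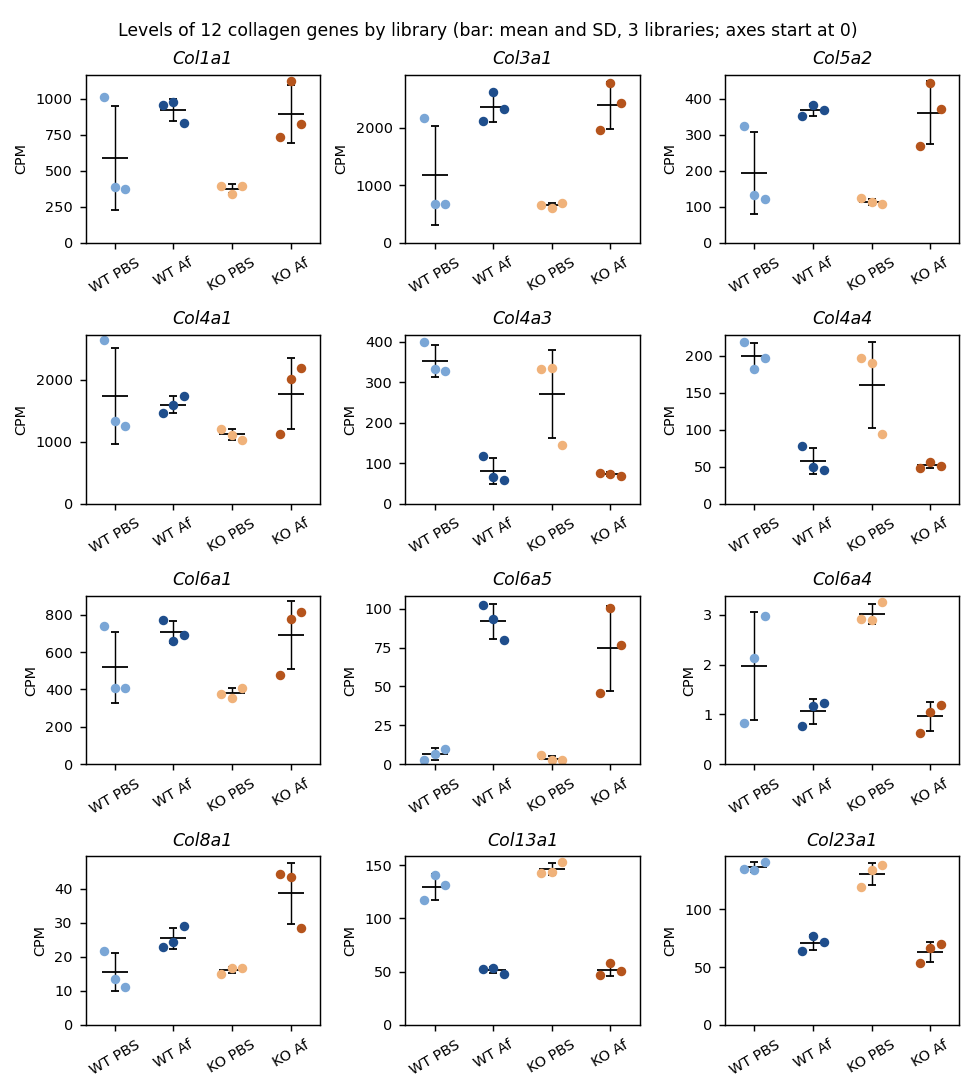
CPM of 12 collagen genes in each of the 12 libraries (points), with the mean and SD of 3 libraries per group as bars; every axis starts at 0. The lone high point of WT PBS in the panels of Col1a1, Col3a1, Col5a2, Col4a1 and Col6a1 is WT_PBS 15, and the low point of KO Af in those of Col4a1, Col6a1 and Col6a5 is KO_Af 12.

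Type VI filaments are built from Col6a1 and Col6a2 chains with a variable partner, Col6a3 or one of Col6a4, Col6a5 and Col6a6. Col6a5 had the largest rise of the 39 in both genotypes. It measured 2.77, 6.68 and 10.1 CPM in WT_PBS and 103, 93.2 and 79.9 CPM in WT_Af. It was 5.62, 2.64 and 2.77 CPM in KO_PBS and 46.1, 101 and 76.6 CPM in KO_Af. Every Af library lay above every PBS library by a wide margin, the lowest Af value being 46.1 CPM and the highest PBS value 10.1 CPM. The rise was 14.6-fold in WT (log2 3.87 ± 0.41, limma adjusted p = 1.82e-05) and 18.0-fold in KO (log2 4.17 ± 0.41, adjusted p = 7.46e-06), and was called in every fit that left out 1 library. Because Col6a5 changed most, the 250 bases before its annotated start are shown.

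They lie at chr9:105960644-105960893, minus strand, GRCm38.p6, from RefSeq, 5′ to 3′, with capitals marking the match to GGGCGG:
Col6a5: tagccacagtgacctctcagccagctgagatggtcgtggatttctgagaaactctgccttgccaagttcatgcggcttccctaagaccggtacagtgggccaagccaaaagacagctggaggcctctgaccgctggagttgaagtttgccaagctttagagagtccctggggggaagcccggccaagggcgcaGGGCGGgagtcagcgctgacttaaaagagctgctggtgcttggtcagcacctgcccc

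Col6a6 and Col6a4 flank Col6a5 on chromosome 9 on the same strand, 27917 and 28810 bases away in GENCODE M21 on GRCm38. In KO, Col6a6 and Col6a5 rose and Col6a4 fell. Col6a6 measured 4.88, 4.77 and 9.35 CPM in WT_PBS and 11.1, 11.0 and 11.9 CPM in WT_Af. It was 5.97, 3.75 and 3.65 CPM in KO_PBS and 6.88, 11.2 and 7.94 CPM in KO_Af. The rise was 1.81-fold in WT (log2 0.86 ± 0.26, limma adjusted p = 0.0156) and 1.86-fold in KO (log2 0.89 ± 0.26, adjusted p = 0.0112), and the WT call was lost without WT_PBS 15 or without WT_PBS 16 (log2 from 0.70). Col6a4 fell in KO from 3.02 ± 0.200 to 0.961 ± 0.295 CPM (n = 3; log2 -1.29 ± 0.30, limma adjusted p = 0.00355) and had a difference of -0.57 in WT, which was -0.97 and called without WT_PBS 15.

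Col6a1, a constant chain of the filament, measured 739, 409 and 407 CPM in WT_PBS and 774, 659 and 693 CPM in WT_Af. In KO lungs Col6a1 was 376, 354 and 408 CPM in KO_PBS and 479.9, 779 and 813 CPM in KO_Af. The KO groups were apart, and WT_PBS 15 lay among the Af libraries. The rise was 1.77-fold in KO (log2 0.83 ± 0.24, limma adjusted p = 0.0109), and the WT difference of 0.51 was not called but was 0.79 and called without WT_PBS 15. Its partner Col6a2 rose in both genotypes (log2 0.72 in WT and 1.09 in KO, limma adjusted p = 0.0178 and 0.00136), although the WT call was lost without WT_PBS 16, WT_PBS 17 or WT_Af 18 (log2 from 0.55). Col6a3, the common partner chain, was not called (log2 -0.02 and 0.10).

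In the main limma fit the 6 type IV genes split into a pair that was not called and 4 that fell in both genotypes. Col4a3, whose chain is found in alveolar and glomerular basement membranes, measured 399, 333 and 327 CPM in WT_PBS and 118, 64.6 and 58.7 CPM in WT_Af. It was 333, 335 and 145 CPM in KO_PBS and 76.6, 74.2 and 68.1 CPM in KO_Af. Every Af library lay below every PBS library, and KO_PBS 11 was the lowest PBS library by far. The fall was 4.58-fold in WT (log2 -2.19 ± 0.31, limma adjusted p = 0.000147) and 3.46-fold in KO (log2 -1.79 ± 0.31, adjusted p = 0.000461). Without KO_PBS 11 the KO value was -2.19. Col4a4, its partner in the same network, measured 219, 182 and 196 CPM in WT_PBS and 77.6, 49.3 and 45.1 CPM in WT_Af. In KO lungs Col4a4 was 197, 189.5 and 93.5 CPM in KO_PBS and 48.7, 56.4 and 51.4 CPM in KO_Af. It fell 3.54-fold in WT (log2 -1.83 ± 0.26, limma adjusted p = 0.000164) and 2.90-fold in KO (log2 -1.53 ± 0.26, adjusted p = 0.000419), again with KO_PBS 11 lowest among the PBS libraries.

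Col4a3 and Col4a4 lie head to head on chromosome 1 with 71 bases between their annotated starts, and since the pair fell together the whole stretch is printed; chr1:82586850-82586920, minus strand (the strand of Col4a4), GRCm38.p6, from RefSeq, 5′ to 3′, all in lower case because no searched motif matched:
Col4a4: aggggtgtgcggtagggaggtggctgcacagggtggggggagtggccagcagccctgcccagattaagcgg
Of its bases 69% are G or C.

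Col4a5, the remaining chain of that network, measured 226, 147 and 132 CPM in WT_PBS and 63.6, 44.0 and 39.5 CPM in WT_Af. It was 134, 138 and 91.1 CPM in KO_PBS and 41.0, 39.8 and 30.8 CPM in KO_Af. The groups did not overlap, and the fall was 3.38-fold in WT (log2 -1.76 ± 0.24, limma adjusted p = 0.000102) and 3.19-fold in KO (log2 -1.68 ± 0.24, adjusted p = 0.000106). Col4a6 lies head to head with Col4a5 on the X chromosome, 1308 bases away, and its chain pairs with that of Col4a5 in the basement membranes of smooth muscle. Far less abundant, it measured 2.44, 2.17 and 3.21 CPM in WT_PBS and 0.768, 0.754 and 0.524 CPM in WT_Af. In KO lungs Col4a6 was 2.31, 2.75 and 2.29 CPM in KO_PBS and 0.787, 0.506 and 0.540 CPM in KO_Af. It fell 2.62-fold in WT (log2 -1.39 ± 0.18, limma adjusted p = 8.31e-05) and 2.67-fold in KO (log2 -1.41 ± 0.18, adjusted p = 5.28e-05). Col4a6 passed the level filter through PBS libraries alone.

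Col4a1 and Col4a2 encode the network common to all basement membranes. Col4a1 read 2631, 1327 and 1254 CPM in WT_PBS and 1454, 1592 and 1740 CPM in WT_Af. In KO lungs it read 1204, 1107 and 1031 CPM in KO_PBS and 1121, 2016 and 2185 CPM in KO_Af. WT_PBS 15 was the highest of the 12 libraries, and KO_Af 12 lay with the PBS libraries while KO_Af 13 and 14 lay above them. Neither difference was called (log2 -0.04 ± 0.29 in WT, limma adjusted p = 0.917; 0.62 ± 0.29 in KO, adjusted p = 0.0892). Without KO_Af 12 both genes were called higher in KO (log2 0.92 for Col4a1 and 0.69 for Col4a2), and without WT_PBS 15 the WT values were 0.30 and 0.13 and not called. Array weights, and the fit without WT_PBS 15 and KO_Af 12 together, also called both genes higher in KO. DESeq2 on the recovered reads of all libraries called Col4a1 higher in KO. With all libraries Col4a2 had log2 differences of -0.15 in WT and 0.35 in KO. The 2 genes lie on opposite strands of chromosome 8 and overlap by 22 bases at their starts, and how the counting treated strand is not stated, so reads of the overlap are uncertain.

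Alveolar type 1 cells carry the network that holds Col4a3, and most of their markers were also lower after Af. In WT 9 of the 10 were lower (25.6% of all genes). In KO 9 were lower (29.2% of all genes) and 1, Pdpn, was higher, which was not called without KO_Af 12. Their summed level was 6938 to 8346 CPM in WT_PBS and 2767 to 3946 CPM in WT_Af, and 5853 to 8549 CPM in KO_PBS and 2804 to 4703 CPM in KO_Af. KO_PBS 11, low for Col4a3 and Col4a4, was also low here at 5853 CPM against 8477 and 8549 CPM in the other KO_PBS libraries. WT_PBS 15 went the other way. Its marker sum of 6938 CPM was the lowest of WT_PBS, against 8346 and 7791 CPM. Yet it was the highest PBS library for Col4a3, Col4a4 and Col4a5, at 399, 219 and 226 CPM. No marker of the list was at 0 in any library, and the part of cell numbers in the fall of the type IV chains was not tested. Of 15 other basement membrane genes, the laminin chains, nidogens, perlecan (Hspg2) and agrin, 1 was higher and 10 lower in WT (26.2% and 25.6% of all genes). In KO 1 was higher and 7 lower (28.7% and 29.2% of all genes). Lama3, a laminin chain of epithelial basement membranes, fell by 1.81 on the log2 scale in WT and by 1.69 in KO (limma adjusted p = 0.000262 and 0.000324), whereas Lama1 was higher in both (0.58 and 0.88), although the WT call was lost by DESeq2 and in each of the 5 fits that left out a WT library other than WT_PBS 16.

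The 3 transmembrane collagens fell in both genotypes with no overlap between exposures. Col13a1, an adhesion protein of many cell types, went from 129.6 ± 12.2 to 51.3 ± 3.04 CPM in WT and from 146 ± 5.51 to 51.9 ± 5.67 CPM in KO (n = 3; log2 -1.33 ± 0.10 and -1.49 ± 0.10, limma adjusted p = 1.43e-06 and 4.53e-07). It had the smallest p-value of the 39 in both comparisons. Col23a1, a related membrane collagen, went from 137 ± 4.15 to 70.96 ± 6.43 CPM in WT and from 131 ± 9.97 to 63.4 ± 8.63 CPM in KO (log2 -0.94 and -1.04). Col17a1, a component of the hemidesmosomes that fix epithelial cells to the basement membrane, fell by 1.15 in WT and 1.23 in KO on the log2 scale. Its level was 6.79, 10.0 and 13.2 CPM in WT_PBS and 4.65, 4.52 and 3.26 CPM in WT_Af, and 10.3, 11.2 and 11.6 CPM in KO_PBS and 7.0, 4.09 and 2.89 CPM in KO_Af. Markers of basal and squamous epithelium, which makes Col17a1, were uneven between libraries: they summed to 526 CPM in WT_PBS 17 and 331 CPM in KO_Af 12, the highest libraries for Col17a1 within WT_PBS and KO_Af, and to 6.83 to 54.7 CPM in the other 10. Of 8 such markers 3, Dsg3, Krt13 and Krt6a, were at 0 in some library. Of the 5 tested 1 was called higher and 0 lower in WT (26.2% and 25.6% of all genes). In KO 2 were higher and 0 lower (28.7% and 29.2% of all genes). The part of these markers in the result was not tested.

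None of the 3 genes of the basement membrane zone was called in either genotype. They are Col7a1 of the anchoring fibrils, and Col15a1 and Col18a1, whose products bear sugar chains and release fragments that act on vessels; their log2 differences ran from -0.39 to -0.02 in WT and from -0.42 to 0.46 in KO. Without KO_Af 12 the KO values were -0.04 for Col7a1, 0.25 for Col18a1 and 0.67 for Col15a1, none called, and without KO_Af 13 Col7a1 was called lower (-0.68). Col15a1 and Col18a1 were called higher in KO under array weights, and also without WT_PBS 15 and KO_Af 12 together. With all libraries the class had 0 calls at an unadjusted p under 0.05 in both genotypes, and neither edgeR nor DESeq2 on the recovered reads called 1. In the FACIT group, whose members sit on the surface of fibrils, Col12a1, Col16a1 and Col20a1 fell in WT (log2 -0.76, -0.76 and -0.87) and in KO (-0.59, -0.70 and -0.90). The KO call of Col12a1 was lost without KO_PBS 9, KO_PBS 10 or KO_Af 12 (-0.37 at the weakest). Col14a1 kept a level of 84.9 to 140.2 CPM over the PBS libraries and 69.3 to 114 CPM over the Af libraries and was not called. The 2 type VIII chains, which form hexagonal networks in vessel walls, moved apart: Col8a1 was higher (log2 0.74 in WT and 1.22 in KO, limma adjusted p = 0.0153 and 0.000675) and Col8a2 lower (-1.22 and -1.16, adjusted p = 3.16e-05 and 3.16e-05). The WT call of Col8a1 was lost without WT_PBS 16, WT_PBS 17 or WT_Af 20 (log2 from 0.54). Col28a1, a low-level chain of the other class, had differences of -0.85 and -0.25 and was not called, although it was called lower in WT without WT_PBS 16 or without WT_PBS 17 (as low as -1.07; -0.43 and not called without WT_PBS 15), and edgeR and DESeq2 called it lower in WT (-1.18 and -1.18).

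The cartilage collagens differed widely between libraries of 1 group in WT. Col10a1, a marker of hypertrophic cartilage, measured 0.0828, 16.4 and 11.5 CPM in WT_PBS and 3.17, 8.68 and 0.187 CPM in WT_Af. It was 4.26, 6.35 and 15.0 CPM in KO_PBS and 0.0393, 0.0460 and 0.154 CPM in KO_Af. It was near 0 in WT_PBS 15, WT_Af 20 and all KO_Af libraries, with 1 to 5 reads each, and had 66 to 378 reads in each of the other 7. Col2a1, the main fibril of cartilage, measured 0.0414, 4.30 and 3.35 CPM in WT_PBS and 3.36, 3.60 and 0.0749 CPM in WT_Af. In KO lungs Col2a1 was 1.78, 2.16 and 5.10 CPM in KO_PBS and 0.0787, 0.138 and 0.0771 CPM in KO_Af. The same 5 libraries held 1 to 3 Col2a1 reads each. Col9a2 and Col11a1, which join Col2a1 in cartilage fibrils, were lowest in the same 5 libraries, and so were Acan, the core proteoglycan of cartilage, Matn1, Comp and Snorc. Acan had 0 or 1 read in each of the 5 and 2.03 to 6.899 CPM in the other 7. Hapln1, a link protein of cartilage, followed in part, since WT_PBS 15 at 0.828 CPM lay above KO_PBS 10 at 0.706 CPM. Matn3 did not follow, at 0.669, 0.506 and 0.308 CPM in KO_Af against 0.249, 0.0743 and 0.176 CPM in KO_PBS, and at 0.487 CPM in WT_Af 20. Sox9, a transcription factor of cartilage and airway epithelium, did not follow them either and was higher after Af in both genotypes (log2 2.08 and 2.44). Of 8 cartilage markers 5 were tested, of which 1 was higher and 1 lower in WT, and 1 higher and 2 lower in KO. Of all genes 26.2% were higher and 25.6% lower in WT, and 28.7% and 29.2% in KO. Acan, Matn1 and Snorc were at 0 in some library.

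In KO, where all 3 Af libraries were in the near-0 set, limma called Col10a1 (log2 -3.79 ± 1.16, adjusted p = 0.0148), Col2a1 (-2.44 ± 0.85, adjusted p = 0.0273), Col9a2 (-1.67) and Col11a1 (-1.09) lower. At such counts the size of a fitted difference depends on the 0.5 CPM added before the logarithm. Col10a1 was not called without KO_PBS 11, Col2a1 not without KO_PBS 11 or any 1 KO_Af library, Col9a2 was called in 1 of the 6 fits that left out 1 library, that without KO_PBS 9, and Col11a1 was not called without KO_Af 12 or KO_Af 14. In WT none of the 4 was called (log2 -0.78, -0.05, -0.44 and -0.25 in the same order), and without WT_PBS 15 Col10a1 was, at -2.32. The other 3 then stood at -1.04, -1.15 and -0.69 and were not called. Col9a3, also a cartilage chain, was not called (log2 0.12 in WT, -0.21 there without WT_PBS 15, and -0.69 in KO). Col2a1, Col9a2, Col9a3, Col10a1 and Col11a1 would not have passed the level filter on Af libraries alone, and how much cartilage each lung piece held was not tested.

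**Figure D3:**
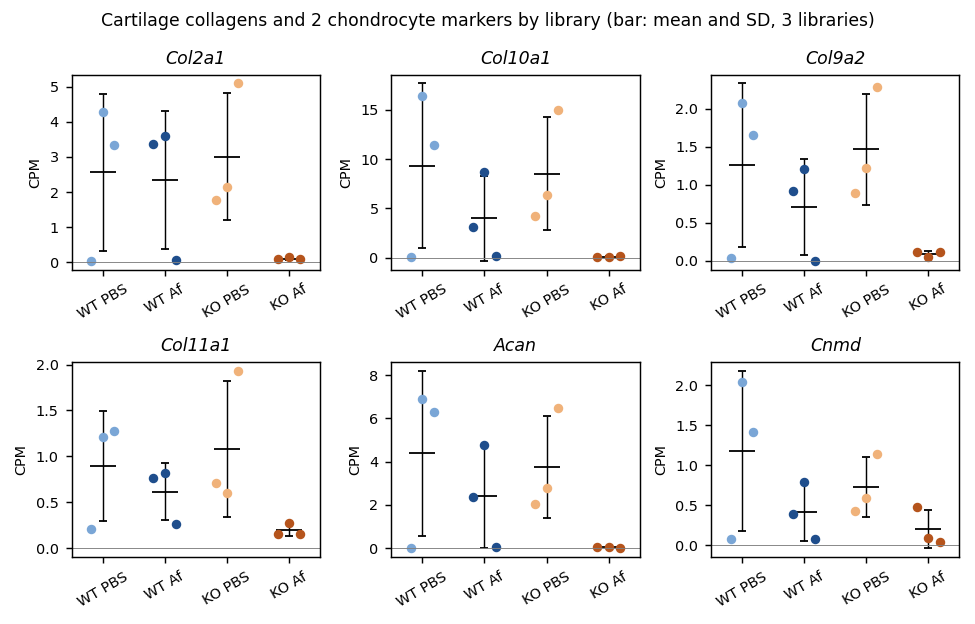
CPM of 4 cartilage collagens and 2 cartilage markers, Acan and Cnmd, in each of the 12 libraries (points), with the mean and SD of 3 libraries as bars and a line at 0. WT_PBS 15, WT_Af 20 and the 3 KO_Af libraries lie near 0 in the panels of Col2a1, Col10a1, Col9a2 and Acan, and Cnmd reached 0.472 CPM in KO_Af 12.

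Levels of different genes can be compared only per length, here as CPM per kb of the union of annotated exons. Summed over the 39 genes the level was 861 CPM per kb as the mean of WT_PBS 16 and 17, 1647 in WT_PBS 15, 1271 ± 23.2 in WT_Af, 785 ± 23.1 in KO_PBS and 1283 ± 302 in KO_Af (SD, n = 3). The fibrillar genes held 26.5 ± 5.41% of that sum in WT_PBS and 41.0 ± 2.16% in WT_Af, and 24.6 ± 1.85% in KO_PBS and 40.6 ± 4.54% in KO_Af. The share of type IV went the other way, from 44.0 ± 1.49% to 30.6 ± 2.03% in WT and from 42.9 ± 4.33% to 32.8 ± 4.14% in KO. Its sum did not fall in KO, at 337 ± 41.7 CPM per kb in KO_PBS and 426 ± 136 in KO_Af. In WT the type IV sum was 490 ± 180 in WT_PBS (386 as the mean of WT_PBS 16 and 17) and 389.5 ± 25.7 in WT_Af. The fibrillar sum was 314.5 ± 195.5 in WT_PBS (202 without WT_PBS 15), 522 ± 36.7 in WT_Af, 193 ± 12.2 in KO_PBS and 515 ± 103 in KO_Af. The share of type VI was 17.4 ± 0.719% in WT_PBS, 21.8 ± 2.22% in WT_Af, 17.8 ± 1.54% in KO_PBS and 20.5 ± 0.800% in KO_Af, and that of the transmembrane genes 5.31 ± 1.97%, 1.90 ± 0.0749%, 7.19 ± 0.569% and 1.85 ± 0.308% in the same order. With the length of the principal transcript in place of the exon union, the fibrillar share was 33.1%, 47.8%, 30.7% and 47.6%, so the levels of the shares depend on the length used while their direction between exposures did not. Shares and sums are descriptions and were not tested.

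**Figure D4:**
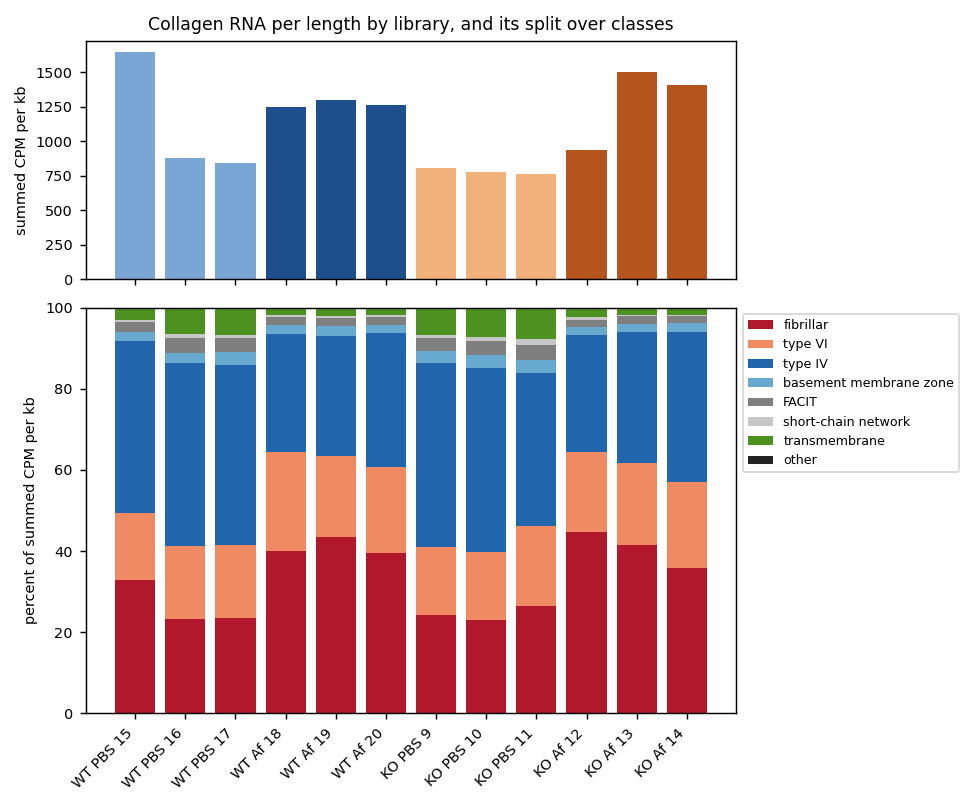
Summed CPM per kb of the 39 collagen genes in each library (upper panel, axis from 0) and its split over the 8 classes in percent (lower panel). The dark red fibrillar part is larger and the blue type IV part smaller in the 6 Af libraries than in the 6 PBS libraries; the closest for type IV are KO_PBS 11 (37.9%) and KO_Af 14 (37.1%).

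In WT_PBS the highest genes per length were Col4a1 at 233 ± 104 CPM per kb, Col4a2 at 178 ± 63.0, Col3a1 at 119.9 ± 88.0 and Col6a1 at 118 ± 43.6 (n = 3), an order within their spread. These means and spreads rest on WT_PBS 15: the mean of WT_PBS 16 and 17 was 173 CPM per kb for Col4a1, 141 for Col4a2, 93.1 for Col6a1 and 69.1 for Col3a1, in that order. In WT_Af Col3a1 was first at 240.2 ± 25.98 CPM per kb, before Col4a1 at 214 ± 19.1, and Col6a5 moved from rank 30 of 39 to rank 15. The order depends on the length used: with principal transcripts Col3a1 stood at 424 CPM per kb in WT_Af against 241 for Col4a1, and in WT_PBS Col3a1 came before Col4a2, and Col1a2 before Col6a1. Several partner chains changed in unequal measure. The ratio of Col4a1 to Col4a2 per kb overlapped between exposures in WT, at 1.218 to 1.408 in WT_PBS and 1.363 to 1.387 in WT_Af. It was 1.107 to 1.21 in KO_PBS and 1.366 to 1.476 in KO_Af. Col6a1 to Col6a2 averaged 2.19, 1.89, 2.33 and 1.94 in WT_PBS, WT_Af, KO_PBS and KO_Af. In that order Col6a3 to Col6a1 averaged 0.17, 0.12, 0.17 and 0.10, and Col3a1 to Col1a1 1.28, 1.72, 1.16 and 1.80. The ratio of Col4a3 to Col4a1 per kb was 0.11 to 0.20 over the WT_PBS libraries and 0.03 to 0.06 over WT_Af, and 0.11 to 0.23 over KO_PBS and 0.02 to 0.05 over KO_Af. Col6a5 to Col6a3, its alternative in the type VI filament, was not among the planned ratios. This ratio was 0.01 to 0.07 in WT_PBS, 0.44 to 0.66 in WT_Af, 0.02 to 0.04 in KO_PBS and 0.48 to 0.50 in KO_Af. For type V, Col5a1 to Col5a2 was 0.60 to 0.89 in WT_PBS and 0.43 to 0.47 in WT_Af, and 0.76 to 0.95 in KO_PBS and 0.42 to 0.47 in KO_Af. Type I is built of 2 Col1a1 chains and 1 Col1a2 chain, and the RNA ratio of Col1a1 to Col1a2 was 1.32 to 1.47 in WT_PBS, 1.72 to 1.84 in WT_Af, 1.34 to 1.51 in KO_PBS and 1.80 to 1.81 in KO_Af. With principal transcripts it averaged 0.65, 0.85, 0.67 and 0.86, so which chain is the higher depends on the length, since the exon union of Col1a2 spans 12426 bases and its principal transcript 5348.

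WT_PBS 15 carried a summed collagen level of 12750 CPM against 5673 to 6581 CPM in the other 5 PBS libraries. Its alveolar type 2 markers were also the highest of the 6, at 27110 CPM against 16450 to 19940 CPM, and its fibroblast markers were at 9553 CPM against 8434 to 9019 CPM. Its contractile markers were the lowest, at 1043 CPM against 1051 to 1255 CPM. What sets the library apart was not tested. Leaving it out raised the WT differences of the type I, III and V chains and of Col6a1 and Col6a2, gave 7 fibrillar genes higher in place of 4, and left the 4 falling type IV genes called. It lowered those of Col6a5 to 3.40 and of Col6a6 to 0.72, both of which had been lower in WT_PBS 15 than the mean of their group.

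**Figure D5:**
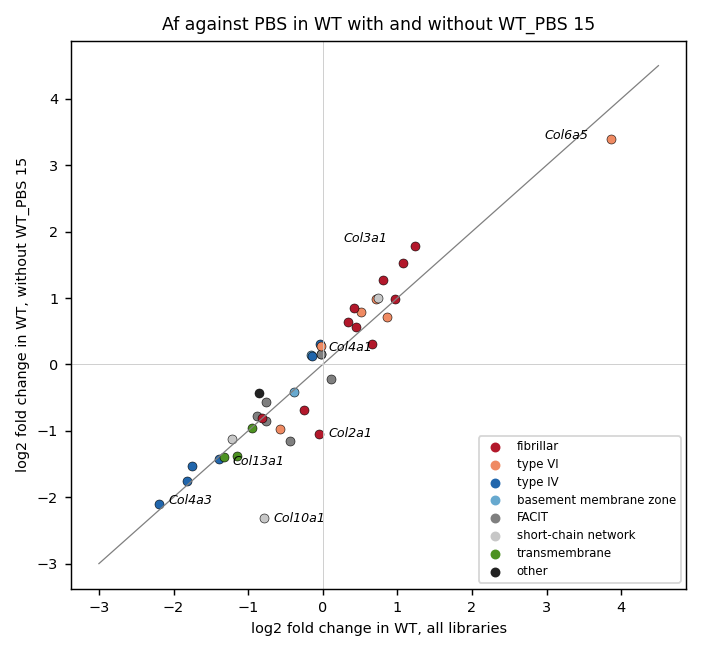
Difference of Af against PBS in WT for the 39 collagen genes with all libraries (horizontal) and without WT_PBS 15 (vertical), on the log2(CPM + 0.5) scale, coloured by class, with the line of equal values. Most fibrillar genes lie above the line and Col10a1 far below it, at -2.32 against -0.78.

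No collagen gene was called between KO and WT by the main limma fit, under either exposure. With the compared groups alone limma called Col24a1 and Col27a1 lower under PBS, where 579 of all 16126 genes were lower. With array weights the same genes were called lower under PBS and under Af, where 1254 and 1016 of all genes were lower. The limma values that follow are from the main fit unless a library is left out. Between KO_PBS and WT_PBS 0 of the 39 were called by limma, beside 3.55% of all genes, with 0 higher and 4 lower at an unadjusted p under 0.05 (17.3% of all genes in either direction). By edgeR the count was also 0 (3.37% of all genes), and DESeq2 called 3 lower, Col5a3, Col15a1 and Col24a1 (7.54% of all genes in either direction). The unadjusted 4 were Col28a1, Col15a1, Col24a1 and Col5a3, with log2 differences of -0.88, -0.76, -0.69 and -0.61 and limma adjusted p from 0.0968 to 0.197. Of these Col5a3, Col24a1 and Col28a1 had their groups apart, and Col15a1 did not. Col24a1 measured 1.66, 1.69 and 1.51 CPM in WT_PBS and 0.888, 0.855 and 0.703 CPM in KO_PBS. Without WT_PBS 15 the differences of Col28a1, Col15a1 and Col5a3 shrank to -0.46, -0.45 and -0.49. That of Col24a1 was then -0.68 and not called, while those of Col1a1 and Col3a1 went from -0.48 and -0.61 to -0.01 and -0.05. In 9 genes every KO_PBS library lay below every WT_PBS library, and in 1, Col13a1, above (15.7% and 17.4% of all genes).

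Under Af 0 of the 39 were called between genotypes by limma, beside 0.0868% of all genes, with 1 higher (Col8a1, log2 0.57, adjusted p = 0.408) and 1 lower (Col24a1, -0.51, adjusted p = 0.420) at an unadjusted p under 0.05, against 11.2% of all genes. EdgeR called 0 (0.0806% of all genes), and DESeq2 called 1, Col10a1, lower (1.16% of all genes). Averaged over both exposures limma called 0 (2.16% of all genes), with 9 lower and 0 higher at an unadjusted p under 0.05 (19.2% of all genes in either direction). EdgeR called 0 of them (2.24%) and DESeq2 1, Col24a1 (7.11%). The interaction, which asks whether the response to Af differed between genotypes, gave 0 calls by limma (0.0062% of all genes), 0 at an unadjusted p under 0.05 (10.9% of all genes), 0 by edgeR (0.0062%) and 0 by DESeq2 (2.24%). The larger number of calls in KO than in WT is therefore not shown to be a difference in response. The interaction estimate was 0.62 ± 0.51 SE for Col3a1 and 0.41 ± 0.44 for Col4a3 on the log2 scale, so differences of that size could not be told from 0 with 3 libraries a group. Col4a3bp, the gene with a collagen-like symbol, fell by 0.29 in WT and 0.34 in KO on the log2 scale (limma adjusted p = 0.0102 and 0.00320).

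Enzymes that fold and modify collagen chains in the endoplasmic reticulum included 4 that were called between genotypes under PBS. Of 19 such genes 0 were higher and 4 lower in KO_PBS than in WT_PBS, while 1.66% of all genes were lower. Serpinh1, the collagen chaperone Hsp47, measured 499.9, 335 and 386 CPM in WT_PBS and 206, 195 and 213 CPM in KO_PBS. It was 0.97 lower on the log2 scale (limma adjusted p = 0.00355). P4ha1 and P4ha2, subunits of the prolyl 4-hydroxylase that stabilises the helix, had log2 differences of -0.94 and -0.61 (limma adjusted p = 0.000624 and 0.00824), and Fkbp14, a prolyl isomerase, -1.02 (adjusted p = 0.0120). The first 3 were called in each of the 6 fits that left out 1 library, and Fkbp14 in 5, the exception being that without KO_PBS 9. Of 6 leukocyte markers 1, Ptprc, and of 10 endothelial markers 1, Tek, were called higher in KO_PBS than in WT_PBS (log2 0.82 and 0.49, limma adjusted p = 0.0201 and 0.0354). In both lists 0 were lower, the other marker lists gave 0 calls, and 306 of all 16126 genes were higher. Ptprc was called in 1 of the 6 fits that left out 1 library, that without WT_PBS 16, and Tek in 0. Endothelial markers summed to 5233 to 5411 CPM in KO_PBS and 3714 to 4616 CPM in WT_PBS, and leukocyte markers to 497 to 533 and 318 to 391 CPM, without overlap. Their part in the lower enzyme levels was not tested. Under Af 0 of the 19 were called between genotypes (0.0868% of all genes), and the interaction gave 0 calls as well (0.0062%). Within genotypes Af gave 3 higher and 6 lower in WT, beside 26.2% and 25.6% of all genes. In KO it gave 10 higher and 3 lower, beside 28.7% and 29.2%. Without WT_PBS 15 the WT count was 5 higher and 6 lower (23.8% and 23.2% of all genes). Serpinh1 after Af was at 424, 470.1 and 404 CPM in WT_Af and 423, 445 and 379 CPM in KO_Af, with a log2 difference from PBS of 0.11 in WT, not called, and 1.02 in KO. P4hb, the partner subunit of the hydroxylase, was higher in both (0.58 and 0.91), and Colgalt2, a collagen galactosyltransferase, lower in both (-1.38 and -2.45).

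After Af 26.2% of all genes were higher and 25.6% lower in WT, and 28.7% and 29.2% in KO, beside which the lists of export and crosslinking genes are given. Of 11 tested genes for export and processing of procollagen 2 were higher and 1 lower in WT, and 3 higher and 1 lower in KO (5 higher without KO_Af 12). Creb3l1, a transcription factor of the secretory pathway, was higher (1.09 and 1.16 log2), and Pcolce2, an enhancer of C-propeptide removal, was lower (-1.95 and -2.24). Of 7 crosslinking enzymes 3 were higher and 1 lower in WT, and 5 higher and 1 lower in KO; without WT_PBS 15 the WT count was 5 higher. Lox, the lysyl oxidase that crosslinks fibrils, measured 178, 90.8 and 84.9 CPM in WT_PBS and 162, 193 and 169 CPM in WT_Af. In KO lungs Lox was 57.1, 63.2 and 46.8 CPM in KO_PBS and 191, 232 and 301 CPM in KO_Af. Its rise in KO was 2.09 on the log2 scale (limma adjusted p = 3.30e-05), and that in WT 0.65 (adjusted p = 0.0478), lost when any 1 WT library other than WT_PBS 15 was left out and by edgeR. Loxl4 was higher in both (1.68 and 2.12), and Pxdn, the peroxidase that crosslinks type IV collagen, was lower in both (-0.94 and -1.17).

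The lists of breakdown, receptors, fibril-associated proteins and TGF-beta stand beside the same shares, since after Af 26.2% of all genes were higher and 25.6% lower in WT, and 28.7% and 29.2% in KO. Of 11 genes of collagen breakdown and its inhibitors 8 were higher and 2 lower in WT, and 7 higher and 2 lower in KO. Timp1, an inhibitor of metalloproteinases, measured 13.5, 9.85 and 7.23 CPM in WT_PBS and 169.5, 414 and 432 CPM in WT_Af, a log2 difference of 4.91, and 6.03 in KO (limma adjusted p = 1.01e-06 and 1.63e-07). The collagenase Mmp13 rose by 2.07 and 3.04 and the macrophage elastase Mmp12 by 3.09 and 3.83, whereas Timp3, an inhibitor bound to the matrix, fell by 1.57 and 0.68. Mmp9, a gelatinase, was higher in KO than in WT under PBS (1.08, limma adjusted p = 0.0182), a call lost without KO_PBS 9 or without KO_PBS 10. Of 10 tested collagen receptors 1 was higher and 6 lower in each genotype. The riser was Lair1, an inhibitory receptor of leukocytes (1.01 and 0.89), and the integrin subunits Itga1 and Itga11 were lower (-0.85 and -1.09 in WT, -1.10 and -1.12 in KO). Lair1 was also higher in KO than in WT under PBS (0.73, limma adjusted p = 0.0368), a call lost in 5 of the 6 fits that left out 1 library, the exception being that without WT_PBS 16. Of 14 fibril-associated proteins 3 were higher and 7 lower in WT, and 3 higher and 4 lower in KO. The 3 risers were Tnc, Thbs1 and Fn1, and Dcn, a proteoglycan that coats type I fibrils, was lower (-1.25 and -0.74). Of 12 genes of the TGF-beta pathway, a known inducer of fibrillar collagen, 2 were higher and 5 lower in WT, and 2 higher and 4 lower in KO; without WT_PBS 15 the WT count was 3 lower, and without KO_Af 12 the KO count was 4 higher.

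Cell type markers were counted in the same tests, in which after Af 26.2% of all genes were higher and 25.6% lower in WT, and 28.7% and 29.2% in KO. Of 10 fibroblast markers 0 were higher and 7 lower in both genotypes, and their sum was 8434 to 9553 CPM in WT_PBS, 2857 to 4757 CPM in WT_Af, 8607 to 9019 CPM in KO_PBS and 2781 to 3956 CPM in KO_Af. Dcn, Lum and Dpt are in both the fibroblast and the fibril-associated list. Of 8 markers of myofibroblasts and smooth muscle 4 were higher and 2 lower in both genotypes, and of 6 pericyte markers 0 were higher and 4 lower in both. Endothelial markers, of which there were 10, gave 0 higher and 5 lower in WT, and 0 higher and 6 lower in KO. Of 6 leukocyte markers 5 were higher in WT and 3 in KO, and their sum was 318 to 391 CPM in WT_PBS, 712 to 819.9 CPM in WT_Af, 497 to 533 CPM in KO_PBS and 728 to 863 CPM in KO_Af. Markers of cardiac muscle, which sleeves the lung veins of mice, gave 0 higher and 2 lower in WT and 0 higher and 4 lower in KO, and summed to 766 to 1501 CPM in WT_PBS and 72.0 to 474 CPM in WT_Af, and to 839 to 1235 CPM in KO_PBS and 57.3 to 399.7 CPM in KO_Af. Of 6 alveolar type 2 markers 0 were higher and 2 lower in both genotypes, of 6 mesothelial markers 1 was higher and 2 lower in WT and 3 higher and 2 lower in KO, and of 5 neural and glial markers 0 were higher and 3 lower in both. No fibroblast, smooth muscle, pericyte, endothelial, leukocyte or cardiac marker was at 0 in any library, and their part in the collagen differences was not tested.

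Promoter windows of RefSeq (250 bases before the annotated start, GRCm38.p6) were found for 32 of the 39 genes, 34 windows in all since some genes have 2. GGGCGG on either strand was in 21 of the 34 (61.8%), against 32.7% of all 32851 windows of that length. CCAAT was in 32.4% against 33.8%, TATAAA in 14.7% against 12.4%, and TTC and GAA with any 4 bases between them, the letters of a STAT site, in 0 against 5.85%. None of the motifs contains another, and overlaps between matches were not removed. These are counts of letters in windows chosen after the responses were known, and describe no factor or site.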

How the data were processed

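Poly-A RNA libraries of mouse lung, 3 in each of 4 groups of genotype and exposure, were used as the authors deposited them: a signal value per gene, in CPM (read counts scaled to a common library total) adjusted by TMM factors. Per the submitters' processing notes cutadapt 1.18, STAR 2.7.6a and RSEM 1.3.0 were used, with the builds GRCm38 and GRCh38 named without roles; per the labels' protocols a Qiagen kit served for extraction and an Illumina TruSeq mRNA kit for the libraries. Every value passed as a whole multiple of what 1 read is worth (100% at a tolerance of 0.01 reads, widened in proportion to the count for high counts), which gave totals of 20708884 to 30229446 reads per library. For the highest counts this check says little. The main test was limma 3.58.1 with a mean trend on log2(CPM + 0.5), with the 4 groups in 1 fit (8 residual degrees of freedom), over 16126 of 49585 genes at 1 CPM or more in 3 or more libraries, with Benjamini-Hochberg adjustment over all of them and a threshold of 0.05. Fold changes on this scale understate the change of low genes. Alternatives were other pseudocounts and filters, the compared groups alone, array weights, leaving out each library, and, added after seeing the data, edgeR 4.0.16 and DESeq2 1.42.0 on the recovered reads, leaving out WT_PBS 15 and KO_Af 12 together, counts without genes that passed the filter through 1 exposure alone, and lengths of principal transcripts. Exon lengths and positions came from GENCODE M21 (GRCm38) and promoter windows from RefSeq (GRCm38.p6). Values in every library are given for the 4 largest rises and 4 largest falls past the threshold with groups apart in each Af comparison, and for Col1a1, Col1a2, Col3a1, Col4a1, Col4a3 and Col6a1; of each of the 8 lists of related genes up to 4 members are named, by smallest p, and other genes were named after their values were seen. The members, lists, chain ratios, motifs and printed promoters were chosen with earlier results of these data known. The tests were tried on simulated data.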

Additional observations from a re-analysis of the deposited data

How the results depend on the processing

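No paired analysis was possible because each library has a number of its own, so no number is shared between groups. Leaving out 1 library gave 4 to 11 collagen genes higher after Af in WT, where 3580 to 3825 genes of all were higher. It gave 0 to 1 collagen genes lower in KO averaged over exposures. For genotype it gave 130 to 428, 3 to 111, 103 to 813 and 0 to 187 genes of all called under PBS, under Af, averaged and in the interaction, where all libraries gave 573, 14, 349 and 1. Without WT_PBS 15 and KO_Af 12 together 13 collagen genes were higher in WT, beside 4671 of all 16010 genes. In that fit Col4a1 in WT turned from a log2 difference of -0.04 to 0.302 and Col18a1 in KO from -0.002 to 0.252, both called there. It called 24 genes of all between genotypes under Af and 45 in the interaction. Array weights, which give each library its own weight, turned Col18a1 in KO to 0.314, called, gave 2, 2 and 5 collagen genes lower in KO under PBS, under Af and averaged, and called 2646, 2204, 3224 and 1602 genes in the 4 genotype tests. DESeq2 gave 3, 1 and 1 collagen genes and 1216, 187, 1147 and 362 genes of all. Fitting the compared groups alone gave 2 collagen genes lower under PBS, and 1124 genes of all under PBS and 3 under Af. Without a filter on low values 373 genes were called under PBS, 188 averaged and 0 in the interaction; a filter of 5 CPM gave 9 under Af and 0 in the interaction, and a pseudocount of 1 gave 2 there. Why the counts moved was not tested. Of the collagen genes called after Af, 15 of 20 in WT and 22 of 29 in KO kept their call whichever library of the comparison was left out. Depth limits Col2a1, Col9a2 and Col10a1, which had 0 to 5 reads in 5 libraries.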
